A study of Mus musculus with 15 samples.

Results

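The 36 genes described here carry out or control the synthesis of sterols and fatty acids, 23 in the sterol branch and 13 in the fatty acid branch, out of 16055 genes measured in mouse kidney. They were chosen by name as enzymes and regulators of these routes, with earlier results of these data known. Each was represented by its brightest probe, and all 36 were well above background on all 15 arrays. The mice were males of strain C57/BJ, operated on at 6 weeks of age and killed 20 weeks later, and RNA was taken from the frozen kidney. There were 4 groups: high-fat diet with the left kidney removed (HFD-UNX, 4 arrays), high-fat diet with a sham operation in which the kidney was only handled (HFD-sham, 3 arrays), low-fat diet with the left kidney removed (LFD-UNX, 4 arrays) and low-fat diet with a sham operation (LFD-sham, 4 arrays). The low-fat diet is also called chow in the labels, so the diets may differ in more than fat. The labels state groups of 6 mice and number the mouse of each array, 1 mouse to an array.

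Cells build cholesterol from acetyl-CoA through mevalonate, squalene and lanosterol, and build fatty acids from the same precursor through malonyl-CoA. Most enzymes of both routes are targets of the SREBP transcription factors, which stay in the endoplasmic reticulum with their escort Scap while sterols are plentiful and are released when sterols fall. The kidney makes both lipids itself, and its proximal tubule burns fatty acids for energy.

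Values are log2 signals relative to the 75th percentile of each array, so a negative value is a gene dimmer than that percentile. The 7 high-fat arrays shared 1 scan day and lay on slides 1 and 2. The 8 low-fat arrays shared another scan day, with slide 3 for sham and slide 4 for kidney removal. Diet and scan day therefore cannot be told apart, nor can surgery and slide among the low-fat arrays. Between 65.7% and 73.4% of probes were well above background on each high-fat array, and between 60.5% and 65.6% on each low-fat array. Counts of arrays above background are therefore not on equal terms between the diets. The 75th percentile of signal ran from 700 intensity units on HFD-sham array 1 to 3433 on HFD-sham array 3. On the low-fat arrays it ran from 1416 to 2019. All 11 kidney tubule markers were above background on every array.

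A few genes of each branch differed between the diets. Dhcr7, which makes cholesterol in the last step of the Kandutsch-Russell route, was 2.39-fold to 2.49-fold higher on the high-fat diet. Acacb and Acaca, the 2 acetyl-CoA carboxylases that make malonyl-CoA, and Elovl6, which lengthens palmitate to stearate, were lower. Within the surgery groups Acacb passed in both, and Acaca and Elovl6 passed in sham mice only. The transcription factors Srebf1, Srebf2 and Mlxipl and the fatty acid synthase Fasn did not pass the test on their brightest probes. Every test was a limma fit over all 16055 genes, with a threshold of 0.05 on the p after Benjamini-Hochberg adjustment.

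In sham mice, 4 of 36 members passed, against 13.9% of all genes, with 1 higher on the high-fat diet (6.48% of all genes) and 3 lower (7.41%). In mice with 1 kidney, 3 of 36 passed, against 14.2% of all genes, with 1 higher (7.67%) and 2 lower (6.52%). With the diet difference averaged over surgery, 10 of 36 passed, against 32.7% of all genes, with 3 higher (15.6%) and 7 lower (17.1%). The 36 members thus passed no more often than genes in general. By branch, 1 of 23 sterol and 3 of 13 fatty acid members passed in sham mice, the 3 being lower. In mice with 1 kidney 2 sterol members and 1 fatty acid member passed, and averaged over surgery 7 and 3. Only the fatty acid branch in sham mice exceeded the share of all genes. The median difference of the sterol branch was -0.03 in sham mice and -0.01 in mice with 1 kidney, and that of all genes -0.02 and -0.01. The fatty acid branch had medians of -0.25 and -0.18, with 9 of 13 and 8 of 13 differences below 0, against 51.8% and 51.2% of all genes. The high-fat and low-fat groups did not overlap in sham mice for 1 member upward and 6 downward, against 11% and 15.2% of all genes. In mice with 1 kidney this held for 2 and 5 members, against 11.4% and 11.1%. With slide as a random block, no member passed in either surgery group, where 0.0872% and 0.162% of all genes did. Dhcr7 and Acacb were the only members to pass in that fit averaged over surgery.

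**Figure D1:**
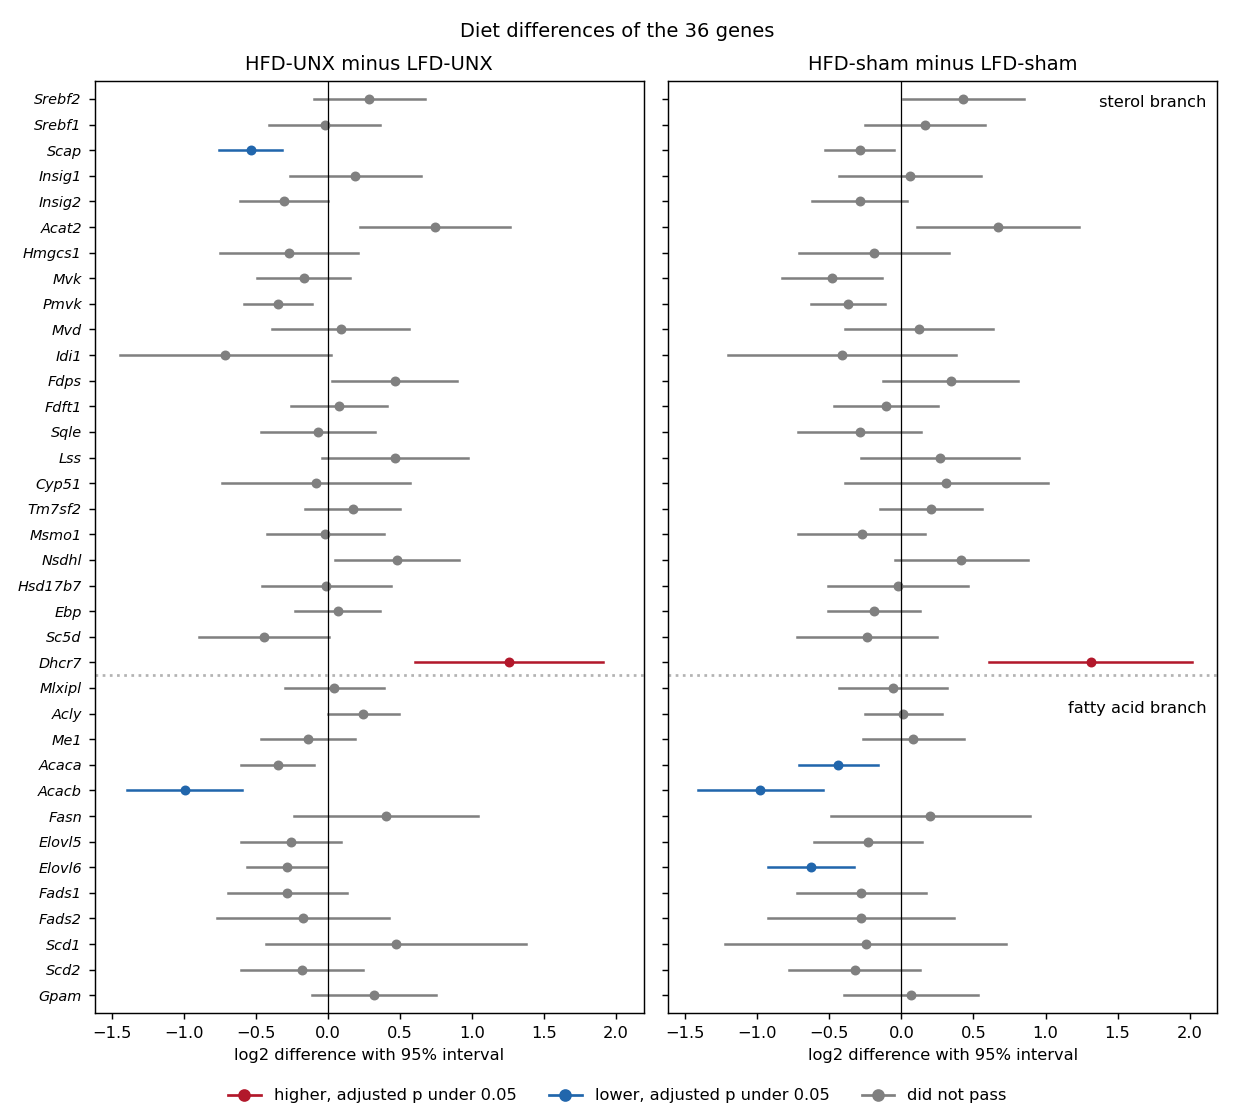
Log2 difference of each of the 36 genes (points) with its 95% interval (lines) between high-fat and low-fat mice, with 1 kidney on the left and after sham surgery on the right; the dotted line parts the sterol branch (above) from the fatty acid branch (below). Dhcr7 stands highest in both panels, at 1.26 and 1.31, and Acacb lowest, at -0.996 and -0.98.

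Among the regulators of the sterol branch, Scap, which carries SREBP to the Golgi for activation, was the clearest. It measured 2.87, 2.91, 2.91 and 2.92 on the HFD-UNX arrays, against 3.5, 3.39, 3.46 and 3.42 on the LFD-UNX arrays. The groups lay apart, and Scap fell by 0.54 (95% interval -0.76 to -0.32, limma adjusted p = 0.00443). On HFD-sham arrays it measured 2.87, 2.96 and 3.21, against 3.39, 3.15, 3.28 and 3.38 on LFD-sham arrays. There 1 high-fat array reached into the low-fat range, and the difference of -0.29 did not pass (limma adjusted p = 0.093). The diet differences of Scap in the 2 surgery groups were not shown to differ (interaction -0.25, limma adjusted p = 1).

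Srebf2, the factor that chiefly drives cholesterol genes, measured -1.07, -0.82, -1.66 and -1.52 in HFD-UNX, against -1.75, -1.56, -1.37 and -1.54 in LFD-UNX. In HFD-sham it measured -1.25, -1.12 and -1.52, against -1.65, -1.86, -1.90 and -1.48 in LFD-sham. The ranges overlapped in both pairs, and neither difference passed (0.29 with limma adjusted p = 0.312, and 0.43 with 0.157). Averaged over surgery the difference was 0.36 (limma adjusted p = 0.0532). A second, dimmer Srebf2 probe gave differences of 1.14 in mice with 1 kidney and 0.99 in sham mice.

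Srebf1, the factor linked mainly to fatty acid genes, measured -2.92, -3.04, -2.35 and -2.34 in HFD-UNX, against -2.80, -2.86, -2.45 and -2.44 in LFD-UNX. It measured -2.57, -2.74 and -2.32 in HFD-sham, against -2.62, -2.81, -2.86 and -2.53 in LFD-sham. The groups ran through the same range, with differences of -0.02 and 0.16 and intervals of -0.41 to 0.36 and -0.26 to 0.58.

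The Insig proteins hold the Scap complex in the endoplasmic reticulum. Insig2 measured 1.11, 1.09, 1.38 and 1.55 in HFD-UNX, against 1.72, 1.5, 1.64 and 1.5 in LFD-UNX, and 1.12, 1.15 and 1.65 in HFD-sham, against 1.47, 1.67, 1.64 and 1.61 in LFD-sham. The HFD-UNX array at 1.55 and the HFD-sham array at 1.65 reached the low-fat range. Its difference passed averaged over surgery only (-0.30, limma adjusted p = 0.0414), and 11 of the 15 fits that each left out 1 array lost it. The other Insig2 probe gave -0.08 averaged over surgery, and the mean of its probes gave -0.19 and did not pass (limma adjusted p = 0.147). Insig1, itself an SREBP target, measured -1.96, -1.82, -2.09 and -2.40 in HFD-UNX, against -2.46, -2.51, -2.18 and -1.89 in LFD-UNX. In HFD-sham it measured -2.09, -1.78 and -2.53, against -1.84, -2.16, -2.68 and -2.10 in LFD-sham. Its groups overlapped, and neither diet difference passed (0.19 and 0.06).

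The mevalonate steps moved in both directions. Acat2, which joins 2 acetyl-CoA molecules at the start of the route, measured 1.76, 1.80, 1.11 and 1.34 in HFD-UNX, against 0.69, 0.73, 0.80 and 0.83 in LFD-UNX. In HFD-sham it measured 1.90, 1.43 and 0.59, against 0.91, 0.32, 0.49 and 0.82 in LFD-sham. Only HFD-sham array 3, at 0.59, lay within the low-fat range, and the same array reached the low-fat range for Scap and Insig2. Averaged over surgery, Acat2 rose by 0.71 (95% interval 0.32 to 1.09, limma adjusted p = 0.0082). With only the high-fat arrays of slide 1 its difference was 1.14 (limma adjusted p = 0.000117), and with only those of slide 2 it was 0.42 and did not pass (limma adjusted p = 0.0659), nor did it with slide as a fixed block.

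Pmvk and Mvk, the kinases that phosphorylate mevalonate in turn, were lower in the averaged comparison. Pmvk measured 1.89, 1.76, 2.04 and 1.88 in HFD-UNX, against 2.32, 2.19, 2.09 and 2.37 in LFD-UNX, and 2.10, 1.79 and 2.00 in HFD-sham, against 2.36, 2.24, 2.29 and 2.43 in LFD-sham. Its groups lay apart in both pairs, and the averaged difference was -0.36 (limma adjusted p = 0.00459). The other Pmvk probe gave -0.18, and the mean of its probes gave -0.27 and passed (limma adjusted p = 0.0198). Mvk measured 1.20, 1.10, 1.62 and 1.20 in HFD-UNX, against 1.24, 1.45, 1.54 and 1.58 in LFD-UNX, and 1.26, 1.29 and 0.93 in HFD-sham, against 1.97, 1.53, 1.5 and 1.58 in LFD-sham. Its groups lay apart in sham mice and overlapped in mice with 1 kidney. The averaged difference of Mvk, -0.33, passed (limma adjusted p = 0.036) on the brightest probe, while its other probe gave 0.41 in mice with 1 kidney and 0.19 in sham mice, and the mean of both probes gave -0.01 (limma adjusted p = 0.951). The call was lost in 8 of the 15 fits that each left out 1 array and in 7 of 14 other alternatives.

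The other 4 mevalonate enzymes, Hmgcs1, Mvd, Idi1 and Fdps, did not pass in any diet comparison. Fdps, which makes farnesyl diphosphate, came nearest, at 0.40 averaged over surgery (limma adjusted p = 0.0518). Hmgcs1, the synthase that supplies HMG-CoA, differed by -0.27 in mice with 1 kidney and by -0.19 in sham mice. The squalene enzymes Fdft1, Sqle and Lss did not pass either, with averaged differences of -0.01, -0.18 and 0.37. A dimmer Fdft1 probe gave 0.85 averaged over surgery, opposite in sign to the brightest.

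Dhcr7 reduces 7-dehydrocholesterol to cholesterol, and the same substrate feeds vitamin D synthesis. It measured -0.22, -0.17, -1.54 and -0.72 in HFD-UNX, against -2.06, -2.16, -1.61 and -1.86 in LFD-UNX. It measured 0.16, -0.42 and -1.24 in HFD-sham, against -1.78, -1.91, -1.91 and -1.65 in LFD-sham. All 7 high-fat arrays were above all 8 low-fat arrays, a separation upward that 4.4% of all genes showed. The rise was 1.26 in mice with 1 kidney (2.39-fold, 95% interval 0.60 to 1.91, limma adjusted p = 0.0158) and 1.31 in sham mice (2.49-fold, 95% interval 0.61 to 2.02, limma adjusted p = 0.0195). The sham call was lost without HFD-sham array 1 or 2, and the other without HFD-UNX array 2. Both were lost with the normexp background (limma adjusted p = 0.0983 in mice with 1 kidney and 0.155 in sham mice). The high-fat arrays spread far more than the low-fat ones, with SDs of 0.64 in HFD-UNX and 0.70 in HFD-sham, against 0.25 in LFD-UNX and 0.12 in LFD-sham.

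Nsdhl, which removes a methyl group on the way from lanosterol, measured 0.79, 1.02, 0.29 and 1.03 in HFD-UNX, against 0.21, 0.13, 0.57 and 0.29 in LFD-UNX. In HFD-sham it measured 0.61, 0.38 and 1.19, against 0.27, 0.22, 0.17 and 0.59 in LFD-sham. High-fat arrays were mostly above low-fat ones, with overlap in both pairs, and the averaged rise was 0.45 (limma adjusted p = 0.0312). It was lost in 9 of the 15 fits that each left out 1 array. A dimmer Nsdhl probe gave 0.26 averaged over surgery. The other 6 enzymes after lanosterol (Cyp51, Tm7sf2, Msmo1, Hsd17b7, Ebp and Sc5d) did not pass, with averaged differences between -0.34 for Sc5d and 0.19 for Tm7sf2. The dimmer probes of Tm7sf2 and Hsd17b7 gave larger differences than the brightest ones, at 0.49 and 0.47 in mice with 1 kidney and 0.50 and 0.46 in sham mice.

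**Figure D2:**
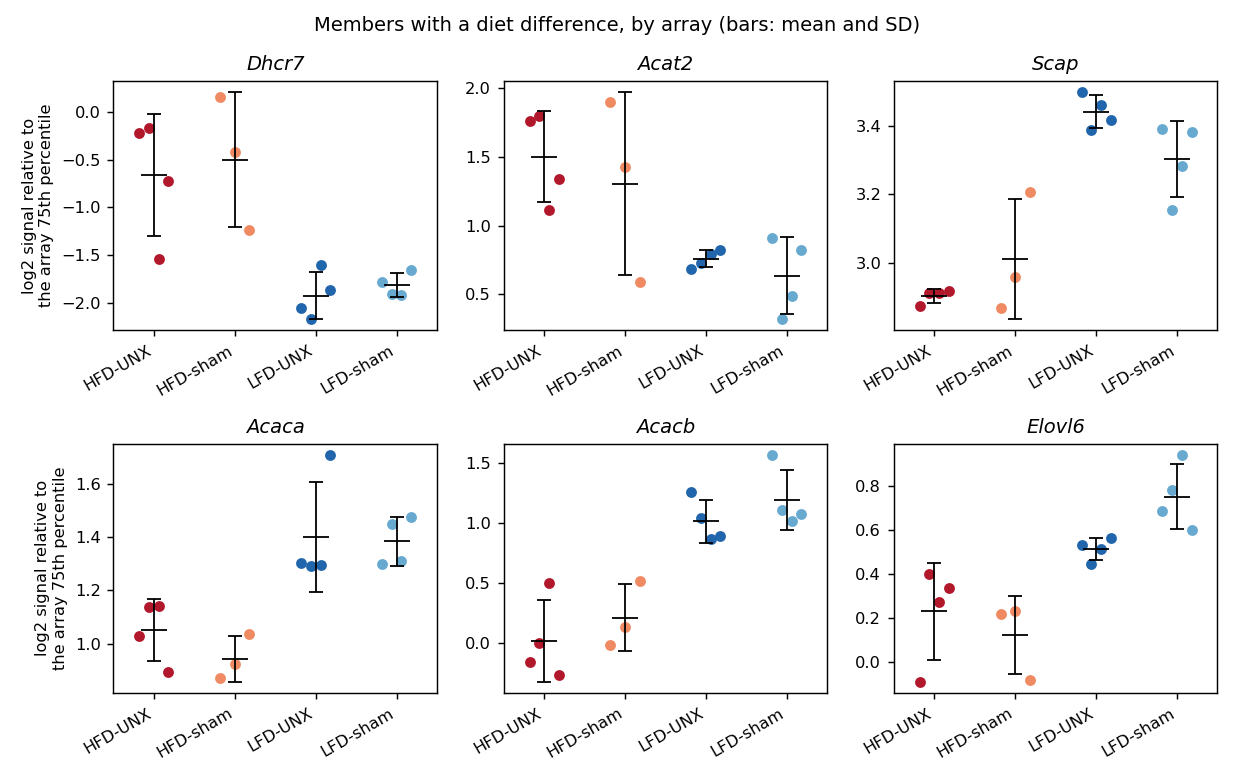
Log2 signal relative to the 75th percentile of each array for 6 genes that passed a diet comparison; points are arrays, and black bars give the mean and SD of each group (n = 4, 3, 4 and 4 from left to right). The high-fat points lie above all low-fat points for Dhcr7 and below them for Acaca, Acacb and Elovl6, and Acat2 and Scap overlap by 1 HFD-sham array.

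In the fatty acid branch, the regulator Mlxipl (also called ChREBP), which answers to glucose, measured 4.13, 4.10, 4.76 and 4.29 in HFD-UNX, against 4.43, 4.35, 4.34 and 4.00 in LFD-UNX. It measured 4.4, 4.18 and 4.53 in HFD-sham, against 4.55, 4.56, 4.44 and 4.17 in LFD-sham. The groups overlapped throughout, with differences of 0.04 and -0.06. Its other probe gave -0.46 in mice with 1 kidney and -0.63 in sham mice, so the probes of Mlxipl disagree.

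Acacb, the carboxylase at the mitochondrial surface whose malonyl-CoA restrains fatty acid import through carnitine palmitoyltransferase, had the strongest difference of the branch. It measured -0.16, 0.01, 0.51 and -0.26 in HFD-UNX, against 1.26, 1.04, 0.87 and 0.90 in LFD-UNX. In HFD-sham it measured -0.01, 0.14 and 0.52, against 1.57, 1.12, 1.02 and 1.08 in LFD-sham. No high-fat array reached the lowest low-fat array. Acacb fell by 0.996 in mice with 1 kidney (0.501 of the low-fat level, 95% interval -1.4 to -0.60, limma adjusted p = 0.00408). In sham mice it fell by 0.98 (0.507 of the low-fat level, 95% interval -1.41 to -0.55, limma adjusted p = 0.00812). Its dimmer probe gave -0.45 and -0.90.

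Acaca, the cytosolic carboxylase that supplies fatty acid synthase, measured 1.03, 1.14, 1.14 and 0.90 in HFD-UNX, against 1.30, 1.29, 1.30 and 1.71 in LFD-UNX. It measured 0.87, 0.92 and 1.04 in HFD-sham, against 1.30, 1.45, 1.31 and 1.48 in LFD-sham. The groups lay apart in both pairs. Acaca fell by 0.44 in sham mice (95% interval -0.71 to -0.17, limma adjusted p = 0.0359), and its difference of -0.35 in mice with 1 kidney did not pass (limma adjusted p = 0.0649). The sham call of Acaca was lost in 6 of the 15 fits that each left out 1 array, namely without any 1 of the 4 LFD-sham arrays or without HFD-sham array 1 or 2. Averaged over surgery it fell by 0.39 (limma adjusted p = 0.00379), while the mean of its 3 probes gave -0.24, which did not pass (limma adjusted p = 0.359). In mice with 1 kidney its dimmer probes gave 0.39 and -0.20.

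Elovl6 measured -0.09, 0.40, 0.27 and 0.34 in HFD-UNX, against 0.53, 0.44, 0.51 and 0.56 in LFD-UNX. It measured 0.22, 0.23 and -0.08 in HFD-sham, against 0.68, 0.78, 0.94 and 0.60 in LFD-sham. Both pairs lay apart. It fell by 0.63 in sham mice (95% interval -0.93 to -0.33, limma adjusted p = 0.0116), and its difference of -0.28 in mice with 1 kidney did not pass (limma adjusted p = 0.158). The difference between these was 0.34 and did not pass (interaction, limma adjusted p = 1). Elovl6, Acaca and Acacb were the 3 members with all high-fat arrays below all low-fat arrays, as 4.86% of all genes were.

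The remaining 9 members of the branch did not pass in any diet comparison. Acly and Me1 supply acetyl-CoA and NADPH; their averaged differences were 0.13 and -0.03, with intervals of -0.05 to 0.31 for Acly and -0.27 to 0.21 for Me1; a dimmer Acly probe gave -0.29. Fasn, the synthase itself, differed by 0.30 averaged over surgery, with an interval of -0.17 to 0.77. The desaturases Fads1, Fads2, Scd1 and Scd2 had averaged differences of -0.28, -0.23, 0.11 and -0.25. Elovl5, an elongase of polyunsaturated chains, was at -0.25 and Gpam, which starts glycerolipid synthesis, at 0.19.

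The promoters of 4 members are shown because they hold the motifs most often tied to SREBP control, or none of them. Dhcr7 and Acacb had the largest rise and fall, Elovl6 also fell, and Hmgcs1 is a textbook SREBP target that did not pass here. Each run is the 250 bases before a RefSeq start in GRCm38.p6, all on the plus strand: for Dhcr7 the most downstream of 3 listed starts (chr7:143829964-143830213), for Hmgcs1 chr13:119690101-119690350, for Acacb chr5:114165268-114165517 and for Elovl6 chr3:129532136-129532385. Capitals mark matches, on either strand, to the sterol regulatory element TCACNCCAC, the CCAAT box, the GC box GGGCGG and the E-box CACGTG; no matches overlapped in these 4 windows.
Dhcr7: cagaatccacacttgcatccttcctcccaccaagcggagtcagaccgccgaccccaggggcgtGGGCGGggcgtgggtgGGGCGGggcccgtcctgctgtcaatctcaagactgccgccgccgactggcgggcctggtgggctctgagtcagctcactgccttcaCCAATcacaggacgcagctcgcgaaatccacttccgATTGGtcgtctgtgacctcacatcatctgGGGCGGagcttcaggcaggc
Hmgcs1: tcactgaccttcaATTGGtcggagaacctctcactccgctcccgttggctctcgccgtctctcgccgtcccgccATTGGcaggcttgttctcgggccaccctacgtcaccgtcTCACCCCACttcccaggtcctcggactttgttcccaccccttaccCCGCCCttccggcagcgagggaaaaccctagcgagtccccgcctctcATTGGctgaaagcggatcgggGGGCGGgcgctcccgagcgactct
Acacb: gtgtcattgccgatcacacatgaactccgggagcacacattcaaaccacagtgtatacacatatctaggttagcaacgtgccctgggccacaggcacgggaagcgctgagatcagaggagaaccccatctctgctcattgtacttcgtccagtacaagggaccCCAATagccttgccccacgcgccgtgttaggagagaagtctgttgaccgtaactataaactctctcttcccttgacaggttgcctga
Elovl6: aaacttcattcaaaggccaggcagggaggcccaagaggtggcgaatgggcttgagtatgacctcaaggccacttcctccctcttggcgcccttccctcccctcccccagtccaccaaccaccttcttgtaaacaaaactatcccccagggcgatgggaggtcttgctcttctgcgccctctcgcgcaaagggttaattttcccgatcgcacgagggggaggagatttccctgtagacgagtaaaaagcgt

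Hmgcs1 held 1 sterol regulatory element, 3 CCAAT boxes and 2 GC boxes, Dhcr7 2 CCAAT boxes and 3 GC boxes, Acacb 1 CCAAT box, and Elovl6 none of the 4 motifs. Promoters were found for 30 of the 36 members, 20 in the sterol branch and 10 in the fatty acid branch, and a gene counted if any of its listed starts held the motif. A CCAAT box was present in 24 of 30 members, against 37.5% of 27025 genes, and a GC box in 24 of 30, against 35.4%. The sterol branch held most of these, with 18 and 19 of 20 members, against 6 and 5 of 10 in the fatty acid branch. The sterol regulatory element was found in Hmgcs1 and Mlxipl, against 1.22% of genes, and the E-box in 7 of 30 members, against 6.86%. The 27025 genes are all those with a listed promoter, not only genes measured in kidney. The members were not set against genes expressed at like levels. A match describes the letters only.

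The high-fat arrays themselves divided by slide. Slide 1 held HFD-UNX 1 and 2 and HFD-sham 1, and slide 2 held HFD-UNX 3 and 4 and HFD-sham 2 and 3. Comparing slide 1 with slide 2 within the diet and with surgery in the fit, 3 of 36 members passed, 8.33%, against 7.11% of all genes, and all 3 were sterol genes. Lss, which closes squalene epoxide into lanosterol, measured -0.82, -0.74 and -1.09 on slide 1, against -1.75, -1.73, -1.66 and -1.71 on slide 2. Hsd17b7, the sterol ketone reductase, measured -0.50, -0.31 and -0.55, against -1.13, -1.31, -1.14 and -0.95. Idi1, which isomerises isopentenyl diphosphate, went the other way, at 1.44, 1.34 and 1.25 on slide 1, against 2.31, 2.29, 2.42 and 3.21 on slide 2.

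In all 3 genes the slides lay apart, by 0.81, 0.69 and -1.18 (limma adjusted p = 0.0354, 0.0475 and 0.0396). Dhcr7 was also split, at -0.22, -0.17 and 0.16 on slide 1, against -1.54, -0.72, -0.42 and -1.24 on slide 2, though the difference of 0.96 did not pass (limma adjusted p = 0.0681). Its slide 2 values still lay above every low-fat value. With only the slide 1 arrays as the high-fat group, the rise of Dhcr7 averaged over surgery was 1.85 (limma adjusted p = 1.15e-05), and with only the slide 2 arrays it was 0.89 (limma adjusted p = 0.00543). In mice with 1 kidney the slide 2 arrays gave 0.79, which did not pass (limma adjusted p = 0.0739), and in sham mice 0.99, which did (limma adjusted p = 0.0245). Acacb kept to a narrower range, at -1.15 with slide 1 and -0.88 with slide 2 (limma adjusted p = 0.000173 and 0.00275). In sham mice the slide 1 group is a lone array, assumed to vary like the other groups. The number of sterol members passing averaged over surgery was 14 of 23 with slide 1 and 6 of 23 with slide 2, beside 54.2% and 33.6% of all genes. The part of the slide in these values was not tested beyond this.

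**Figure D3:**
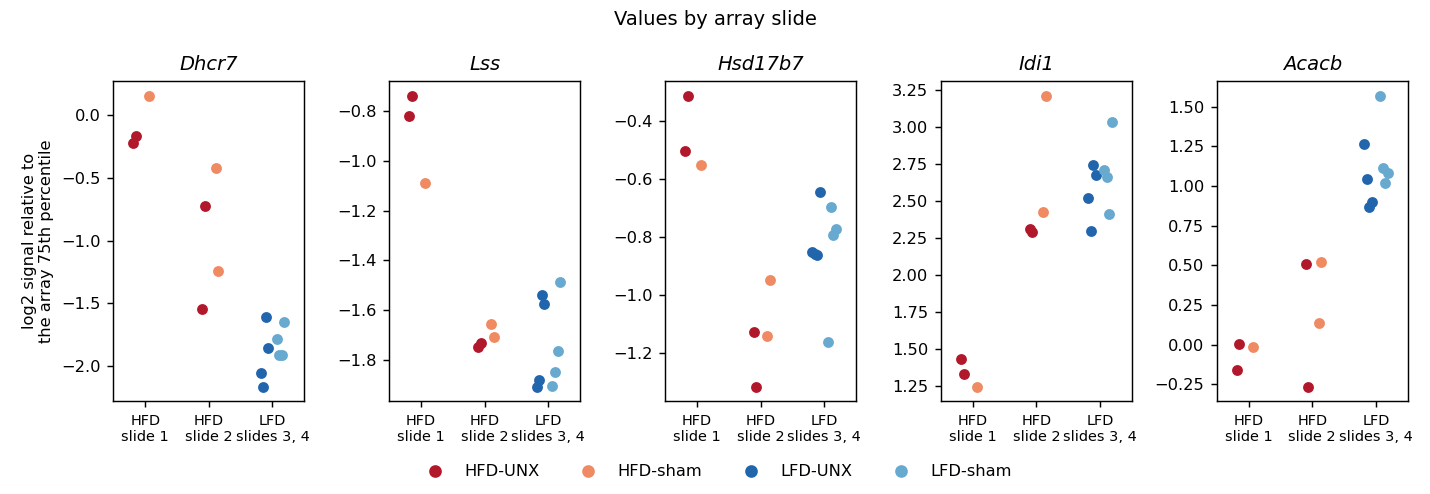
Log2 signal relative to the 75th percentile of each array for 5 genes, with high-fat arrays divided by slide and low-fat arrays (slides 3 and 4) together; each point is an array, coloured by group. Dhcr7, Lss and Hsd17b7 lie higher and Idi1 lower on slide 1, while Acacb lies below the low-fat arrays on both slides.

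No member passed the test for removal of a kidney. On the high-fat diet, 0 of 36 members passed and 0% of all genes did, and the unadjusted limma p was under 0.05 for 747 of 16055 genes and for 0 members. On the low-fat diet 0 of 36 passed, against 0.00623% of all genes, and 519 genes and 0 members had an unadjusted p under 0.05. For the interaction of diet and surgery, 0 of 36 members and 0% of genes passed, and 219 genes and 0 members had an unadjusted p under 0.05. Every other fit that was run also called 0 members in these 3 comparisons.

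The members' surgery differences ran from -0.45 for Idi1 to 0.85 for Scd1 on the high-fat diet, and from -0.37 for Sqle to 0.26 for Me1 on the low-fat diet. Me1 (malic enzyme) measured 5.11, 5.04, 5.06 and 5.11 in LFD-UNX, against 4.74, 4.82, 4.74 and 5.01 in LFD-sham, and Elovl6 (values above) was lower in every LFD-UNX array than in any LFD-sham array. These were the 2 members whose low-fat surgery groups lay apart, as 2.6% of all genes did upward and 1.97% downward. Neither passed, with limma adjusted p = 1 for both. The intervals of Dhcr7 (-0.87 to 0.54 on the high-fat diet and -0.76 to 0.55 on the low-fat diet) and of Acacb (-0.63 to 0.24 and -0.58 to 0.22) still allow sizeable surgery differences.

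**Figure D4:**
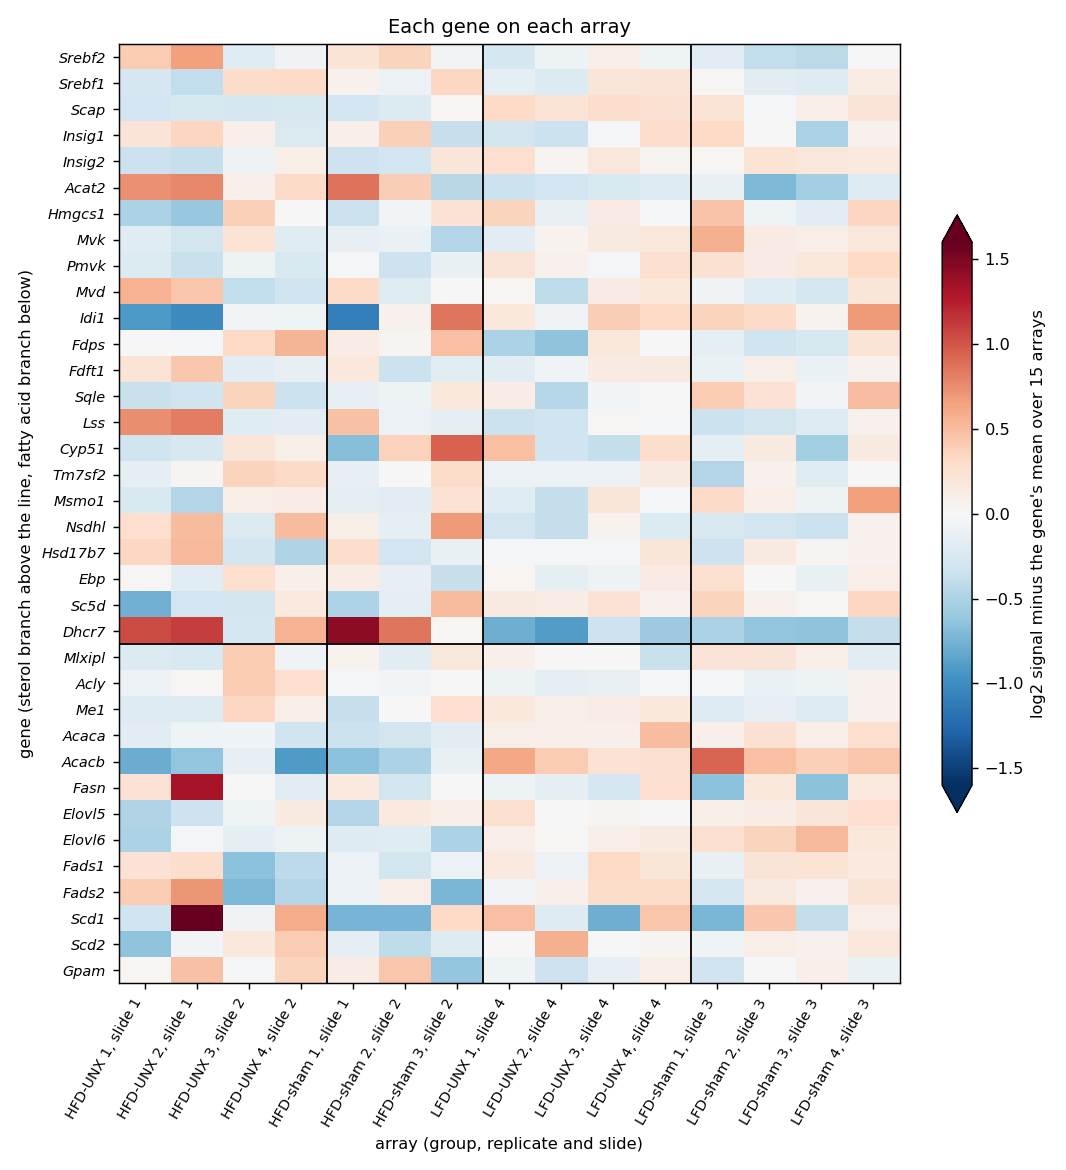
Each of the 36 genes (rows) on each of the 15 arrays (columns, by group, replicate and slide), as log2 signal minus the mean of that gene over all arrays; red is higher and blue lower. Dhcr7 is red on 6 of 7 high-fat arrays and blue on all 8 low-fat ones, Acacb is blue on the high-fat and red on the low-fat arrays, and Scd1 and Fasn stand out on HFD-UNX array 2.

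Scd1, the stearoyl-CoA desaturase that is abundant in fat cells, had the largest SD of the 36 members in HFD-UNX, LFD-UNX and LFD-sham (in HFD-sham it was Idi1). It measured 1.41, 3.32, 1.66 and 2.32 in HFD-UNX, against 0.98, 0.97 and 2.04 in HFD-sham, and 2.21, 1.51, 0.94 and 2.16 in LFD-UNX, against 0.99, 2.15, 1.34 and 1.84 in LFD-sham. Adipocyte markers moved over the same arrays. In bulk kidney RNA, fewer cells of a type and less RNA per cell cannot be told apart. The summed linear level of the 12 adipocyte markers ran from 12 to 23.8 in HFD-UNX and from 11.5 to 22.9 in HFD-sham. It ran from 16.4 to 29.8 in LFD-UNX and from 27.7 to 46.2 in LFD-sham. The sum of 23.8, on HFD-UNX array 2, lacks Car3, which had no value there, so it is not on equal terms with the others. Fabp4 and Car3 weigh most in LFD-sham, at log2 values of 3.35 to 3.90 and 3.33 to 3.72. All 12 marker differences were below 0 in sham mice (4 lower by the test, 0 higher) and 5 of 12 in mice with 1 kidney (1 lower, 1 higher). Leptin (Lep) was well above background on 4 HFD-UNX and 2 HFD-sham arrays, against 0 LFD-UNX and 1 LFD-sham arrays. Its HFD-sham values, -7.86, -6.87 and -6.71, nevertheless lay within the low-fat range. The lipid droplet protein gene Plin1 was so on all arrays but 1 HFD-sham array, and the other 10 markers on every array.

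Over the 15 arrays, Scd1 and the mean of 11 adipocyte markers (leaving out Car3, which had a missing value) had Pearson's r = 0.75 (permutation p = 0.00102) and Spearman's rho = 0.76 (permutation p = 0.00148). Adjusted over 16001 genes correlated in the same way these became 0.706 and 0.797 by permutation and did not pass. Without the 2 arrays farthest from the median of the markers, r was 0.67. Within diets, r was 0.93 over the 7 high-fat arrays (exact p = 0.00159, two-sided; rho = 0.93) and 0.72 over the 8 low-fat arrays (exact p = 0.0338, two-sided; rho = 0.76). Scd1 was singled out after its values were seen, and 0.0937% of genes had an r as high or higher. For Acaca and Scd2, the other members over 0.5, r was 0.56 and 0.53. The part of adipocyte RNA in these values and in the diet differences was not tested.

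**Figure D5:**
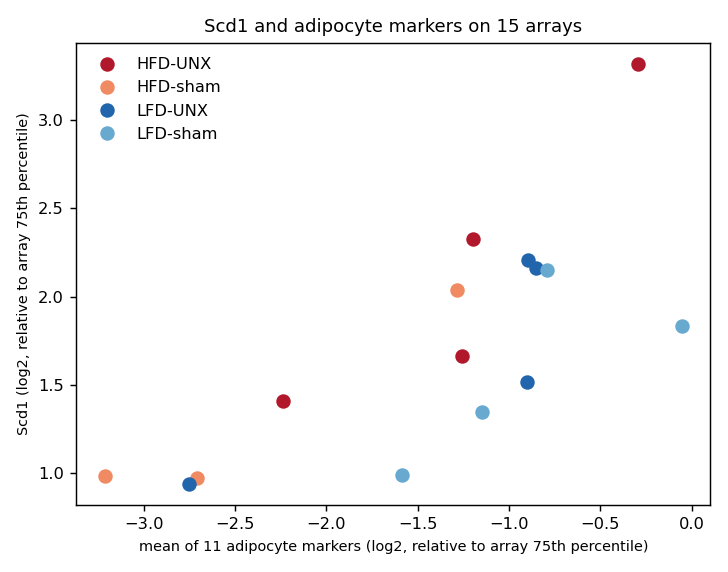
Scd1 against the mean of 11 adipocyte markers, both as log2 signal relative to the 75th percentile of each array; each point is an array, coloured by group. HFD-UNX array 2 has the highest Scd1, at 3.32, and HFD-sham array 1 the lowest marker mean, at -3.21, with Scd1 at 0.98.

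The 12 liver markers, included as another tissue, summed to 158.5 to 169 in HFD-UNX and 122.6 to 163 in HFD-sham. They summed to 172 to 214 in LFD-UNX and 166.8 to 219 in LFD-sham. Cyp2e1 was the brightest of them on every array, at log2 values of 6.13 to 7.21. Serpina1a ran from 3.46 to 6.15, and Alb only from -0.67 to 2.22. The sums thus follow the brightest markers and do not gauge liver RNA as such. The sum of 158.5, on HFD-UNX array 2, lacks Apoh, which had no value there. Of them, 1 was higher and 1 lower in each diet comparison within a surgery group, and 2 were higher and 6 lower averaged over surgery, where 0 adipocyte markers were higher and 4 lower. Ahsg was well above background on 1 HFD-UNX and 1 HFD-sham array, against 4 LFD-UNX and 4 LFD-sham arrays, and Apoa1 on 1 and 2, against 3 and 3. Kidney tubule markers summed to 1269 to 1527 in HFD-UNX and 898.8 to 1683 in HFD-sham, against 1166 to 1360 in LFD-UNX and 1183 to 1318 in LFD-sham, and 0 of 11 passed in either diet comparison within a surgery group and 1 passed averaged over surgery. Their part in the results was not tested.

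Of 25 other genes of the sterol pathway, 1 was lower and 0 higher in sham mice, where 13.9% of all genes passed, and 2 were higher and 0 lower in mice with 1 kidney, where 14.2% did. Averaged over surgery 3 were higher and 3 lower, beside 32.7% of all genes. Stard4, which moves cholesterol within cells, measured 0.78, 1.18 and 0.89 in HFD-sham, against 1.75, 1.37, 1.52 and 1.63 in LFD-sham, and fell by 0.61 (limma adjusted p = 0.0125). Npc2, which hands cholesterol out of the lysosome, rose by 0.58 in mice with 1 kidney (limma adjusted p = 0.0356).

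Of 36 other fatty acid and triglyceride genes, 5 passed in sham mice (2 higher, 3 lower), beside 13.9% of all genes, and 4 in mice with 1 kidney (2 higher, 2 lower), beside 14.2%. Averaged over surgery 9 passed (4 higher, 5 lower), beside 32.7%. Agpat1, which adds the second acyl chain to glycerolipids, measured 2.00, 2.00, 2.55 and 2.40 in HFD-UNX and 2.09, 2.74 and 2.31 in HFD-sham, against 1.4, 1.29, 1.21 and 1.30 in LFD-UNX and 1.42, 1.31, 1.20 and 1.27 in LFD-sham. Every high-fat array exceeded every low-fat array, and Agpat1 rose by 0.94 in mice with 1 kidney and 1.08 in sham mice (limma adjusted p = 0.00232 in each). Acsl5, which activates fatty acids, rose by 0.42 and 0.43 (limma adjusted p = 0.0285 and 0.0359). Nr1h2, the oxysterol receptor LXR beta, measured 3.14, 2.97, 3.16 and 3.27 in HFD-UNX and 3.16, 3.16 and 3.00 in HFD-sham, against 3.70, 3.74, 3.82 and 3.75 in LFD-UNX and 3.76, 3.60, 3.73 and 3.72 in LFD-sham. The diets lay apart, and Nr1h2 fell by 0.62 and 0.59 (limma adjusted p = 0.00191 and 0.00395). Mcat, of mitochondrial fatty acid synthesis, fell by 0.75 and 0.74 (limma adjusted p = 0.00396 and 0.00721), and Elovl1, of very long chains, fell by 0.55 in sham mice (limma adjusted p = 0.0347).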

How the data were processed

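Labelled RNA (100 ng per mouse) was hybridised to 1-colour Agilent arrays. The authors' intensity (signal) values were made with Agilent's Feature Extraction software, version 10.7.3.1 per the file headers and 10.7 in the submitters' processing notes, background-subtracted but not normalized between arrays. The value table the authors deposited repeats these intensities, at 0.995 to 1.005 times the scanner values, and served as an alternative. Of 39429 non-control probes, 27234 were named through RefSeq accessions (GRCm38.p6 table, names only; the headers name mm9). Signals were put on the log2 scale, spots marked as outliers dropped, and each array's 75th percentile subtracted. A probe was kept if 3 or more arrays had it well above background, and each gene took its brightest probe. limma 3.58.1 (R 4.3.3) fitted 1 mean for each group over 15 arrays, with Benjamini-Hochberg adjustment over 16055 genes, and was tested on simulated data. The number of arrays limits the precision. Promoters are RefSeq's.

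The members and gene lists were chosen with earlier results of these data known. Values on every array are given for members that pass in a diet comparison and for regulators; of the other lists, up to 6 passing genes are named by lowest p, and some are not reported here. Scd1, Lss, Hsd17b7, Idi1 and Me1 were added after their values were seen. The files hold no mean spot signal, so the normexp alternative used median intensities.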

Additional observations from a re-analysis of the deposited data

Results flagged for a closer look

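In groups of 4 arrays, the highest or lowest array was set against the other 3 by Dixon's gap test, which picks out about 1 group in 20 by chance; 8 of 108 member groups stood out. HFD-sham, with 3 arrays, was not tested. In HFD-UNX, Sqle was high on array 3, at 2.84, against 2.13 to 2.17 on the other arrays, and Scap was low on array 1, at 2.87, against 2.91 to 2.92. In LFD-UNX, array 4 was high for Acaca (1.71, against 1.29 to 1.30), Tm7sf2 (1.36, against 1.12 to 1.13) and Hsd17b7 (-0.64, against -0.86 to -0.85), and array 2 was high for Scd2 (2.17, against 1.6 to 1.65). In LFD-sham, array 1 was high for Mvk (1.97, against 1.5 to 1.58) and low for Fads1 (0.12, against 0.40 to 0.45). No member moved in opposite ways on every array of the groups compared, and the interaction passed for none of them.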

How the results depend on the processing

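None of the 17 calls of 10 members changed direction in the alternatives run; members that did not pass were not followed, and single probes of Hsd17b7, Fdft1, Acly, Mlxipl, Mvk and Acaca differ in sign from the brightest one. Of these calls, each tried under 14 or 15 alternatives, 199 of 245 values stayed past the threshold, as did 218 of 255 values with 1 array left out. Dhcr7 and Acacb averaged over surgery passed in every one. The number of members passing moved by more than 1.5 times as follows, beside 1 sterol and 3 fatty acid members in sham mice, 2 and 1 in mice with 1 kidney, and 7 and 3 averaged over surgery. Slide as a random block left 0 and 0, 0 and 0, and 1 and 1, where it called 0.0872%, 0.162% and 4.51% of all genes. The normexp background left 0 and 0 in sham mice, 0 sterol members in mice with 1 kidney and 3 averaged over surgery, where it called 1%, 1.97% and 11.8% of all genes. Slide as a fixed block on the high-fat arrays gave 2 sterol members in sham mice, 3 fatty acid members in mice with 1 kidney and 6 averaged over surgery. It called 19.4%, 16% and 32.1% of all genes there. Cyclic loess gave 4 and 2 in mice with 1 kidney (15.9% of all genes), and keeping dim probes gave 2 sterol members in sham mice (23.5%). The robust fit with an intensity trend gave 3 sterol members in sham mice (14.4%) and 4 in mice with 1 kidney (14.5%).

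With the replicate number as a block, 4 sterol members passed in mice with 1 kidney, beside 13.3% of all genes. Correlations of 21 same-numbered pairs of arrays ran from -0.15 to 0.43, and 5 exceeded 0.1. Differently numbered pairs were not set beside them, so these values cannot settle whether the numbers pair the mice. The high-fat arrays of slide 1 only were an alternative chosen after seeing the data. With these, 13 sterol and 3 fatty acid members passed in mice with 1 kidney, beside 48% of all genes. Averaged over surgery 14 and 5 passed, beside 54.2%. HFD-sham is a lone array there, so no count is given for sham mice. With slide 2 only, 2 sterol members passed in sham mice, beside 22.8% of all genes. In mice with 1 kidney 1 sterol and 4 fatty acid members passed, beside 14.6%, and averaged over surgery 6 fatty acid members, beside 33.6%. With 1 array left out, sterol members passing ran from 0 to 4 in sham mice (0 without HFD-sham 2, 4 without HFD-sham 3, 3 without HFD-UNX 3), from 1 to 5 in mice with 1 kidney (1 without HFD-UNX 2, 4 without HFD-sham 1 or 3, 5 without HFD-UNX 3) and from 4 to 9 averaged over surgery (4 without LFD-UNX 2), and fatty acid members from 1 to 2 in mice with 1 kidney (2 without HFD-UNX 3). The share of all genes passing in the fits with 1 array left out moved too. It ran from 7.54% to 16.9% in sham mice, from 8.08% to 20.6% in mice with 1 kidney and from 28.1% to 38% averaged over surgery. The cause of these changes was not tested. Without the filter on dim probes the median of all genes shifted to -0.13 in sham mice and -0.10 in mice with 1 kidney, and with normexp to -0.11 in sham mice. The share of higher genes among all genes passing was 46.6% in sham mice, 54% in mice with 1 kidney and 47.6% averaged over surgery; it was 25.2%, 35.9% and 31.9% without the filter and 31.1%, 38% and 34.4% with normexp.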
